A study of Mus musculus with 6 samples.

Results

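The enzymes of hepatic fatty acid oxidation and ketogenesis described here are 30 genes of the 21899 listed in each deposited gene table and were picked by name for their place in the pathway, with earlier results of these data known. They comprise 4 genes of the carnitine shuttle, 4 acyl-CoA dehydrogenases, 5 enzymes of the later mitochondrial steps, 3 enzymes that deal with double bonds and 3 components that carry electrons to the respiratory chain, together 19 mitochondrial members. The other 11 are 3 peroxisomal enzymes, the ketone body dehydrogenase Bdh1, 4 type I acyl-CoA thioesterases, and 3 linked enzymes outside the oxidation spiral, Pdk4, Vnn1 and Aldh3a2. Liver RNA was sequenced from 3 C57BL/6 mice fed CDAA and 3 fed CSAA, feeds known in this field as choline-deficient and choline-supplemented amino acid-defined diets, with 1 library per mouse. C57BL/6 is a standard inbred laboratory strain, and the labels name no genetic alteration in either group. The mice started at 6 weeks of age and had 1 week of acclimatisation. A transition of 1 week followed, listed for all 6 mice, in which the CDAA animals had mixtures of both feeds before pure CDAA. All livers were collected in week 6 after that. Each p-value below from all 6 libraries rests on 3 mice per diet, and each from a fit without a library on fewer mice in that library's diet.

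In the mitochondrial pathway, long-chain fatty acids cross the membranes as carnitine esters and are then shortened in repeated rounds of oxidation, hydration, oxidation and thiolysis, with electrons passed to the respiratory chain through electron transfer flavoprotein. Peroxisomes run a related spiral on very-long-chain and dicarboxylic substrates, and liver mitochondria turn much of the resulting acetyl-CoA into ketone bodies for export. Many of these genes are known targets of the nuclear receptor PPARα, which binds DNA with RXR at paired hexamer repeats.

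Library totals ran from 14580676 to 17367173 reads over genes. The hepatocyte marker Alb stood between 71061.0 and 84254.5 CPM in CDAA and between 49644.8 and 66893.7 CPM in CSAA, so the libraries carry the liver transcripts that the labels name. CPM is a gene's read count brought to a common library total, here after edgeR's TMM scaling. The 21 hepatocyte markers summed to 140227.3 to 152044.9 CPM in CDAA and 99522.1 to 124751.8 CPM in CSAA. At an edgeR adjusted p under 0.05, 1 of them was higher in CDAA, Cps1, and 1 lower, Hpx (log2 fold change -0.91). Alb, the largest part of the sum, did not pass in edgeR (adjusted p = 0.309) and passed in DESeq2, another count model (adjusted p = 0.0162). The log2 fold change was positive for 20 of the 21, against 50% of all genes tested. For 15 of them all 3 CDAA libraries stood above all 3 CSAA libraries, against 15.6%, and for 1 below, against 20.4%. The 18 monocyte and macrophage markers summed to 444.5 to 547.3 CPM in CDAA and 1122.6 to 1852.8 CPM in CSAA, 14 of them lower in CDAA at the same threshold and 0 higher. Stellate cell and fibroblast markers summed to 395.5 to 703.6 CPM in CDAA and 1059.9 to 1437.3 CPM in CSAA, with 7 of 10 tested lower. Among the 7 were Col1a1 (log2 fold change -2.26) and Col3a1 (-1.88), which encode fibrillar collagens. In the same list 2 markers had positive values without passing, Acta2 (0.89, edgeR adjusted p = 0.343) and Des (0.39, 0.695). Both were highest in CDAA replicate 1. Of the T cell, B cell and NK cell markers 6 of 10 tested were lower (sums of 8.45 to 12.3 CPM in CDAA and 30.1 to 43 CPM in CSAA). Of the endothelial markers 3 of 10 were lower (518.4 to 556.7 CPM in CDAA and 673.1 to 704.0 CPM in CSAA). Of the biliary markers 1 of 6 was lower (57.1 to 68 CPM in CDAA and 79.1 to 114.5 CPM in CSAA), and in these lists 0 were higher. Among all 12845 genes tested, 10.5% were lower and 4.25% higher, so the biliary count lay near the share of all genes. Choline-deficient amino acid-defined feed is known to bring inflammation and fibrosis to mouse liver, so the macrophage and collagen markers ran against the labels. Whether the labels of the 2 diets were exchanged was not tested; CDAA and CSAA below mean the libraries labelled so, and an exchange would turn every direction given. In bulk tissue, a change in the number of cells of a type and a change in RNA per cell cannot be told apart. CDAA replicate 1 also held pancreatic acinar transcripts, with a sum of 2429.2 CPM where the other 5 libraries had 15.2 CPM or less, and striated muscle transcripts, with a sum of 345.7 CPM where the others had 2.36 CPM or less. The muscle carnitine palmitoyltransferase Cpt1b stood at 0.457 CPM in that library, a count of 6 reads, and at 0.689 to 1.64 CPM in the others. The part of the pancreatic and muscle transcripts in the members' levels was not tested.

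All 30 members passed the filter on low counts and were tested. At an edgeR adjusted p under 0.05, 6 rose in CDAA, against 4.25% of the 12845 genes tested, and 0 fell, against 10.5%. The 6 were Slc25a20, Acadvl, Acaa2, Eci1, Decr1 and Etfdh, all mitochondrial, and their fold changes lay between 1.40 and 1.46. At an unadjusted p under 0.05, 16 members stood higher, against 12.8% of tested genes, and 0 lower, against 17.9%. The log2 fold change was positive for 28 members, where 50% of all tested genes and 20 of the 21 hepatocyte markers had a positive value. Its median over the 30 was 0.41, against 0.00 over all tested genes and 0.41 over the 21 hepatocyte markers. All 3 CDAA libraries stood above all 3 CSAA libraries for 12 members, against 15.6% of tested genes and 15 of the 21 hepatocyte markers. They stood below them for 0 members, against 20.4% of tested genes and 1 of the 21 hepatocyte markers. DESeq2, a second count model, called 13 members higher, against 7.86% of the genes it tested, and 0 lower, against 11.3%. Without CDAA replicate 1, the library with pancreatic and muscle transcripts, edgeR again called 6 members higher, against 1.71% of genes, namely Slc25a20, Acadvl, Decr1, Cpt2, Acaa1b and Pdk4. Without CDAA replicate 3 it called 4, Acadvl, Acaa2, Echs1 and Etfdh, against 5.25% of genes. Without CSAA replicate 3 it called 6, against 3.04%. Acadvl was the 1 member called without CDAA replicate 2, against 1.2% of genes, and without CSAA replicate 2, against 1.25%. Without CSAA replicate 1 it called 0, against 0.588%, or 76 genes in all.

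**Figure D1:**
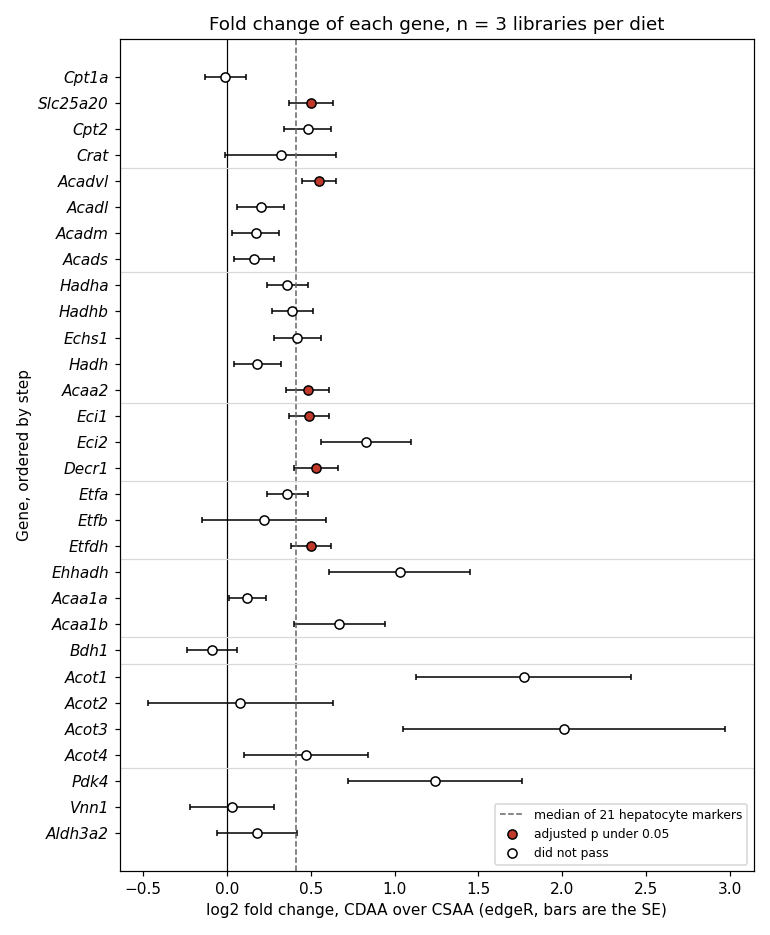
Log2 fold change of each of the 30 genes, CDAA over CSAA, from edgeR on the TMM scale, with bars for the SE (n = 3 libraries per diet); filled points passed the adjusted p threshold of 0.05 and the dashed line is the median of the hepatocyte markers, 0.41. The 6 genes that passed lie between 0.48 and 0.55, and the widest bars belong to Acot3 and Acot1. With library size only, 0 members passed and 19 of the 30 values were positive.

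These directions depend on how the libraries are scaled. With library size only, the tested genes as a whole shifted by a median of -0.28 on the log2 scale, 0 members passed in either direction (against 1.07% of genes higher and 21.4% lower), and 19 members remained positive. When the libraries were scaled on the hepatocyte markers, that shift was -0.38, 0 members were called higher (against 0.677% of genes) and 1, Bdh1, was called lower (against 25.4%), with 16 members positive. The members' median was 0.13 with library size only and 0.03 on the hepatocyte scale. The part of the lower macrophage, stellate, lymphocyte and endothelial signal of the CDAA libraries in these values was not tested.

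**Figure D2:**
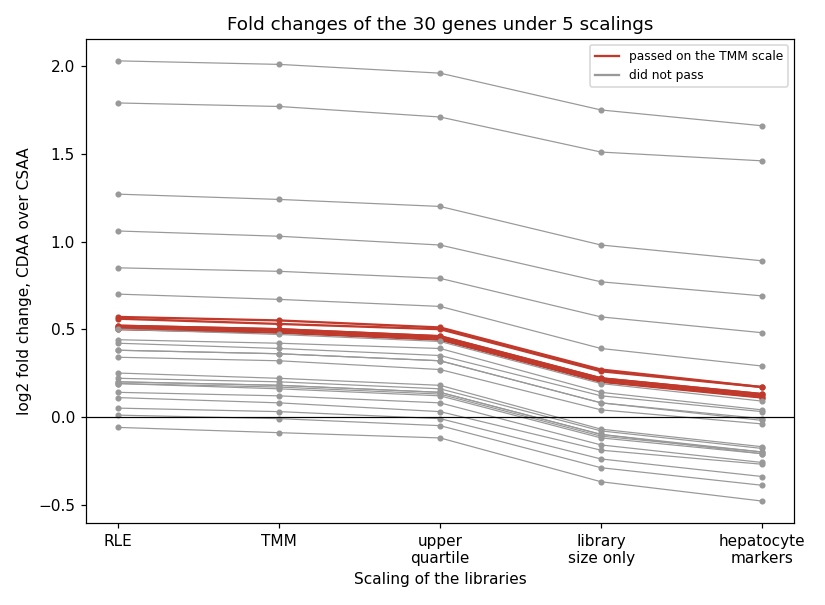
Log2 fold change (CDAA over CSAA) of the 30 genes under 5 scalings of the libraries, 1 line per gene, with the 6 genes that passed on the TMM scale in red. The lines run almost parallel; 28 lie above 0 on the TMM scale, 19 with library size only and 16 on the hepatocyte marker scale, so the members with small values change sign between scalings.

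Levels per transcript length were compared between genes as FPKM on the TMM scale. The highest was Acaa1b, a peroxisomal ketoacyl-CoA thiolase, at 601.2 ± 183.2 FPKM in CDAA and 377.0 ± 92.9 FPKM in CSAA (mean ± SD, n = 3 each). Acaa2, the mitochondrial ketoacyl-CoA thiolase, followed at 532.1 ± 31.3 FPKM in CDAA and 381.4 ± 45.5 FPKM in CSAA, and its range overlapped that of Acaa1b in both diets. Etfa, the alpha subunit of electron transfer flavoprotein, had 198.1 ± 6.22 FPKM in CDAA and 154.9 ± 15.9 FPKM in CSAA. Between Ehhadh in the fourth place and Echs1, mean levels over all libraries fell gradually, within 172.1 to 23.5 FPKM, and most neighbours in that order lay within each other's spread. Crat and the thioesterases were lower, and Etfb was last at 0.971 ± 0.0141 FPKM in CDAA and 0.827 ± 0.187 FPKM in CSAA.

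**Figure D3:**
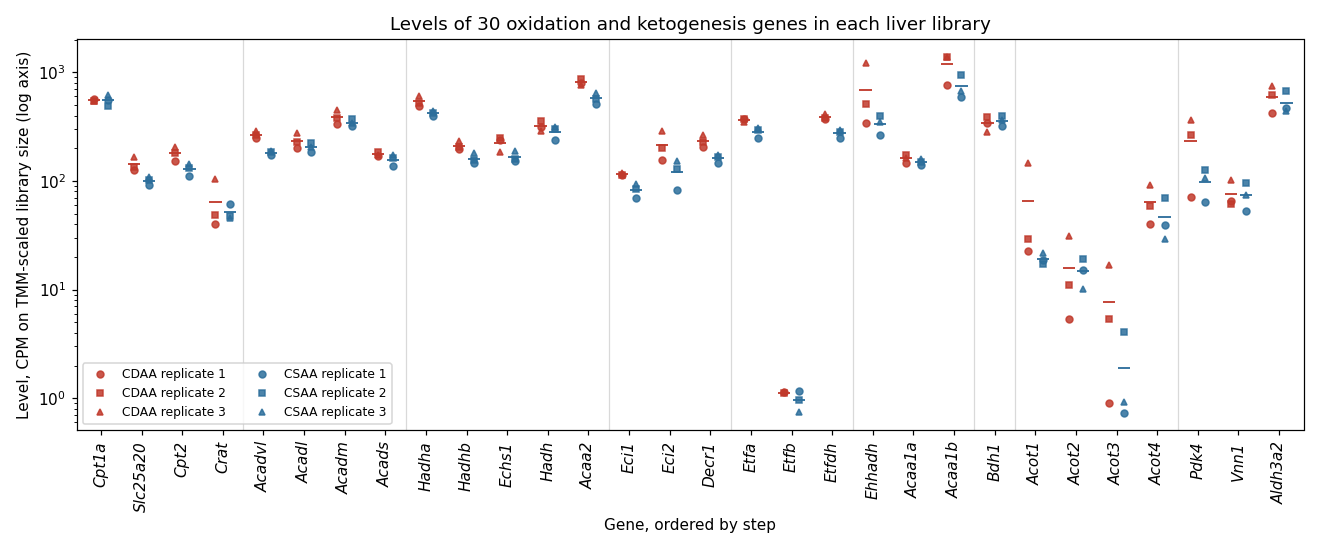
Level of each gene in every library, in CPM on TMM-scaled library sizes (log axis); CDAA points stand left of CSAA points, symbols mark replicates 1 to 3, short lines are group means and grey lines separate the steps. Acadvl and Etfdh show 3 CDAA points above all CSAA points, while Ehhadh and Acot1 have a CDAA replicate 3 far above their other 5 points.

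Of the 4 carnitine shuttle genes, 1 rose and 3 did not pass. Slc25a20, the carnitine-acylcarnitine translocase of the inner membrane, had 125.8, 134.2 and 165.5 CPM in CDAA replicates 1 to 3, against 92.2, 101.6 and 108.1 CPM in CSAA replicates 1 to 3. All CDAA values lay above all CSAA values, and the log2 fold change of 0.50 ± 0.13 (SE) passed with an edgeR adjusted p of 0.0394. The call was lost when CDAA replicate 2 or 3 or any CSAA replicate was left out, and kept without CDAA replicate 1. Cpt1a, the outer-membrane palmitoyltransferase that controls entry, stood at 570.7, 539.6 and 539.9 CPM in CDAA and at 560.3, 490.7 and 614.0 CPM in CSAA. The CDAA values fell inside the CSAA range, with a log2 fold change of -0.01 ± 0.12 that turned to 0.01 with RLE factors. Cpt2, which transfers the acyl group back to CoA in the matrix, had 151.5, 182.4 and 204.4 CPM in CDAA and 111.8, 132.5 and 142.1 CPM in CSAA. Those groups did not overlap, but the difference of 0.48 ± 0.14 on the log2 scale missed the threshold (edgeR adjusted p = 0.0601); it was 0.0475 without CDAA replicate 1, 0.0496 with RLE factors and 0.0138 in DESeq2. Crat, the carnitine acetyltransferase, had 40.5, 48.4 and 104.8 CPM in CDAA and 61.8, 47.9 and 46.0 CPM in CSAA. CDAA replicate 3 alone stood above the CSAA libraries, and the log2 fold change of 0.32 became -0.22 without it.

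Among the acyl-CoA dehydrogenases, which open each round, the member for the longest chains was the one that passed. Acadvl, the very-long-chain enzyme bound to the inner membrane, had 246.7, 264.8 and 287.2 CPM in CDAA, against 173.8, 184.5 and 189.1 CPM in CSAA. Its groups were well apart, with a log2 fold change of 0.55 ± 0.10 and the smallest adjusted p of all members (edgeR, 0.0142), and the call was lost only without CSAA replicate 1 (adjusted p = 0.0593). The Acadvl model shares 2119 of its 5229 bases with Dvl2 on the opposite strand, which had 66 to 125 reads in CDAA and 130 to 158 reads in CSAA. The remaining dehydrogenases act on shorter chains and did not pass. Acadl, the long-chain enzyme, had 201.9, 229.4 and 274.2 CPM in CDAA and 184.6, 224.9 and 206.4 CPM in CSAA. Acadm, the medium-chain enzyme, had 334.4, 378.8 and 448.8 CPM in CDAA and 318.3, 373.9 and 340.8 CPM in CSAA. Acads, the short-chain enzyme, had 170.4, 185.8 and 171.8 CPM in CDAA and 135.9, 162.9 and 173.3 CPM in CSAA. For these 3 genes the diets overlapped and the log2 fold changes, 0.20, 0.17 and 0.16, became negative both with library size only and on the hepatocyte scale.

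The later mitochondrial steps are carried by the trifunctional protein for long chains and by separate soluble enzymes for shorter ones. Hadha and Hadhb, its alpha and beta subunits, are neighbouring genes read in opposite directions. The bases between their gene models are shown because the gene models start at either end of them. They lie at chr5:30155163-30155247 on GRCm38 (plus strand, GENCODE M21 gene models, bases from the RefSeq promoter table), 85 bases in all, and the deposited tables leave 85 bases between the models too:
Hadha-Hadhb: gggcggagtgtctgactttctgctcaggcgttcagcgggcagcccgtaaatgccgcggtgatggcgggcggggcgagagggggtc
Hadha had 492.1, 524.8 and 601.5 CPM in CDAA and 398.8, 422.3 and 440.8 CPM in CSAA. Hadhb had 196.5, 205.3 and 231.0 CPM in CDAA and 144.9, 155.1 and 182.1 CPM in CSAA. Both were higher in every CDAA library, with log2 fold changes of 0.36 ± 0.12 and 0.39 ± 0.12, and both missed the threshold in edgeR (adjusted p of 0.0865 and 0.0691) and passed it in DESeq2 (0.0120 and 0.0186). Hadhb also passed without CSAA replicate 3, and Hadha stood at -0.01 on the hepatocyte scale.

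Acaa2, which cleaves ketoacyl-CoA in the matrix, had 788.9, 860.5 and 770.6 CPM in CDAA and 514.1, 569.4 and 651.1 CPM in CSAA. The groups did not overlap, and the log2 fold change of 0.48 ± 0.13 just passed (edgeR adjusted p = 0.0474). It no longer passed without CDAA replicate 1 or 2 or CSAA replicate 1 or 2, or with upper-quartile factors or no filter. Echs1, the short-chain enoyl-CoA hydratase, had 236.2, 245.9 and 186.3 CPM in CDAA and 151.2, 159.5 and 188.8 CPM in CSAA. Here CDAA replicate 3 was the low one, just under CSAA replicate 3, and the log2 fold change of 0.42 passed once that CDAA library was left out (0.54, edgeR adjusted p = 0.0300). Hadh, the hydroxyacyl-CoA dehydrogenase for medium and short chains, had 312.8, 359.3 and 289.0 CPM in CDAA and 237.5, 300.7 and 311.5 CPM in CSAA. The diets overlapped for Hadh, and its log2 fold change of 0.18 turned to -0.10 with library size only.

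The enzymes for unsaturated fatty acids stood higher in every CDAA library for all 3 members, and 2 of the 3 passed. Eci1, the mitochondrial enoyl-CoA isomerase, had 114.2, 113.2 and 118.1 CPM in CDAA and 69.5, 83.5 and 93.2 CPM in CSAA. The CDAA values were almost level while the CSAA values were spread, and the log2 fold change was 0.49 ± 0.12 (edgeR adjusted p = 0.0330), a call kept only without CSAA replicate 3. Decr1, the mitochondrial dienoyl-CoA reductase, had 203.6, 229.1 and 267.1 CPM in CDAA and 144.8, 165.0 and 173.4 CPM in CSAA. It changed by 0.53 ± 0.13 on the log2 scale (edgeR adjusted p = 0.0337) and passed without CDAA replicate 1 or CSAA replicate 3 but not without any of the other 4 libraries. Eci2, an isomerase found in mitochondria and peroxisomes, had 157.2, 199.3 and 287.9 CPM in CDAA and 81.7, 128.6 and 152.6 CPM in CSAA. The groups came close without overlapping, and with an SE of 0.27 the largest log2 fold change of the mitochondrial members, 0.83, missed the threshold (edgeR adjusted p = 0.0813, DESeq2 0.0126).

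Electrons from the dehydrogenases pass through Etfa and Etfb, the flavoprotein's subunits, to Etfdh, the membrane-bound oxidoreductase that reduces ubiquinone. Etfdh had 371.1, 381.8 and 416.7 CPM in CDAA and 248.7, 282.0 and 297.0 CPM in CSAA. The diets were clearly apart, and Etfdh changed by 0.50 ± 0.12 on the log2 scale (edgeR adjusted p = 0.0271), which passed without CDAA replicate 3 or CSAA replicate 3 and not without the other 4 libraries. Etfa had 368.6, 371.4 and 350.4 CPM in CDAA and 250.7, 297.0 and 304.7 CPM in CSAA. Every CDAA library was above every CSAA library, and the log2 fold change of 0.36 ± 0.12 missed the threshold (edgeR adjusted p = 0.0769, DESeq2 0.0120) and stood at -0.02 on the hepatocyte scale. Etfb was counted at 15, 15 and 16 reads in CDAA and at 24, 18 and 12 reads in CSAA. This partner of one of the most abundant members thus had about 1 CPM (log2 fold change 0.22 ± 0.37, which turned to -0.07 with library size only). In the deposited tables its model shares 13673 of its 13718 bases with Etfbl on the same strand, a gene with 0 reads in all 6 libraries, and the part of that overlap in the low count was not tested.

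Over the 19 mitochondrial members the median log2 fold change was 0.39, with 6 higher (4.25% of all tested genes were), 0 lower (10.5%) and 18 positive (50%), and in 11 all CDAA libraries stood above all CSAA libraries (15.6%). The 21 hepatocyte markers had a median of 0.41, with 20 positive and 15 standing above in that way. The summed level of the mitochondrial members was 5084.4, 5454.9 and 5716.2 CPM in CDAA and 3881.8, 4283.0 and 4616.0 CPM in CSAA. The libraries of each diet lay close together for these genes, with a median SD on the log2 scale of 0.15 in CDAA and 0.17 in CSAA, near the 0.16 in CDAA and 0.13 in CSAA of the 8336 tested genes that averaged 10 CPM or more. For the other 11 members the median SD was 0.60 in CDAA and 0.34 in CSAA, and 0 of them passed in edgeR. An unadjusted p under 0.05 was reached by 4 of the 11, Ehhadh, Acaa1b, Acot1 and Pdk4, and DESeq2 called 1, Acaa1b. The fold changes of these 11 thus mostly came with larger errors.

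None of the 3 peroxisomal members passed in edgeR, DESeq2 called Acaa1b alone (adjusted p = 0.0331), and the 3 differed in how far the CDAA livers agreed. Ehhadh, the peroxisomal bifunctional enzyme, had 341.8, 511.7 and 1213.8 CPM in CDAA and 265.3, 395.7 and 349.9 CPM in CSAA. CDAA replicate 3 stood far above all other libraries, CDAA replicate 1 lay inside the CSAA range, and the log2 fold change of 1.03 ± 0.42 missed the threshold (edgeR adjusted p = 0.141) and was 0.34 without CDAA replicate 3. Acaa1b had 764.3, 1391.2 and 1382.8 CPM in CDAA and 597.4, 945.1 and 676.8 CPM in CSAA. Its CDAA replicates 2 and 3 stood above every CSAA library and replicate 1 below CSAA replicate 2, at a log2 fold change of 0.67 ± 0.27 (adjusted p = 0.132 in edgeR); without CDAA replicate 1 it was 0.91 and passed (0.0461). Acaa1a, its paralog, had 146.8, 175.0 and 163.5 CPM in CDAA and 139.2, 149.5 and 158.9 CPM in CSAA. The diets overlapped for Acaa1a, and its log2 fold change of 0.12 turned to -0.16 with library size only. The coding sequences of Acaa1a and Acaa1b are 96.5% identical in GENCODE M21 with a longest shared run of 327 bases, so reads could be split between them by the authors' counting, and their separate values are uncertain. Over the 3 genes the median log2 fold change was 0.67, and it was 0.34 without CDAA replicate 3.

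Ketogenesis joins acetyl-CoA units to acetoacetate, which Bdh1, the member described here, reduces to hydroxybutyrate. Bdh1 had 338.5, 391.3 and 283.7 CPM in CDAA and 317.0, 394.6 and 365.5 CPM in CSAA. The diets overlapped, with a difference of -0.09 ± 0.15 on the log2 scale (edgeR adjusted p = 0.737), which was 0.03 without CDAA replicate 3; on the hepatocyte scale it was -0.48 and passed as lower (0.0443). Acat1, the thiolase that opens the pathway, had 540.3, 524.1 and 452.0 CPM in CDAA and 299.4, 409.3 and 430.1 CPM in CSAA. Acat1 stood higher in every CDAA library, and its log2 fold change of 0.41 missed the threshold in edgeR (adjusted p = 0.127) and passed in DESeq2 (adjusted p = 0.0473). The 9 other ketone body genes tested had a median log2 fold change of 0.37, and 6 were positive, against 50% of all tested genes. In 4 of the 9 all CDAA libraries stood above all CSAA libraries, against 15.6%, and in 1 below, against 20.4%. At the edgeR threshold 0 of the 9 rose and 1 fell, a share near the 10.5% of all tested genes that fell. The 1 was Oxct1, the transferase with which tissues other than liver use ketone bodies, which averaged 6.38 ± 2.26 CPM in CDAA and 12.9 ± 3.30 CPM in CSAA (SD, n = 3 each; edgeR log2 fold change -1.02, adjusted p = 0.0487), a call kept only without CDAA replicate 1.

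The type I acyl-CoA thioesterases split acyl-CoA into free acid and CoA, and in mouse lie side by side on the plus strand of chromosome 12, where the deposited tables place Acot2 at 84034635 to 84040647, Acot1 at 84056264 to 84065145, Acot4 at 84085153 to 84095375 and Acot3 at 84098918 to 84107176 (build not named in the headers, so not comparable with the GRCm38 positions of promoters). Acot1 acts in the cytosol, Acot2 in mitochondria, and Acot3 and Acot4 in peroxisomes. The start of the Acot2 coding sequence is shown beside that of Acot1 because its leader, in capitals, is what separates these near-identical genes at the 5′ end: the 123 bases have no counterpart in Acot1 (GENCODE M21 transcripts, GRCm38, both 5′ to 3′).
Acot2: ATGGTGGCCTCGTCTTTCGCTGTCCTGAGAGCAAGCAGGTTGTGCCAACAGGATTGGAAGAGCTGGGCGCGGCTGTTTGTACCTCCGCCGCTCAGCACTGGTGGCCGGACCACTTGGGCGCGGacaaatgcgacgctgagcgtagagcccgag
Acot1: atggaggcgacgctgaaccttgagccctcg
Past the leader, Acot1 and Acot2 are 95.3% identical in coding sequence with a longest shared run of 273 bases. Acot3 is 83.9% identical to Acot1 and 84.1% to Acot2, and Acot4 is 75.3% to 76.6% identical to the other 3.

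Acot1 had 22.5, 29.1 and 144.8 CPM in CDAA and 18.7, 17.3 and 21.7 CPM in CSAA. CDAA replicate 3 was 5.61 times the mean of CDAA replicates 1 and 2, which themselves stood just above the CSAA libraries. Its edgeR estimate was 1.77 ± 0.64 on the log2 scale (adjusted p = 0.105), and 0.43 without CDAA replicate 3. Acot2 had 5.40, 11 and 30.9 CPM in CDAA and 15.1, 19.3 and 10.2 CPM in CSAA. Its lowest and highest values both came from CDAA livers, and the log2 fold change of 0.08 became -0.86 without CDAA replicate 3 and -0.19 with library size only. Acot3 had 0.913, 5.41 and 16.8 CPM in CDAA and 0.738, 4.06 and 0.932 CPM in CSAA. Replicate 2 of both diets and CDAA replicate 3 stood above the remaining libraries, and the largest log2 fold change of all members, 2.01 ± 0.96, missed the threshold (edgeR adjusted p = 0.203). Acot4 had 40.0, 59.4 and 92.6 CPM in CDAA and 39.2, 70.2 and 29.1 CPM in CSAA, with a log2 fold change of 0.47 ± 0.37 and overlapping diets. The median of the 4 was 1.12, and 0.27 without CDAA replicate 3. Acot3 and Acot4 share 6470 and 9667 bases on the same strand with Gm49366, which had 0 reads in all libraries, so all 4 levels are uncertain where reads match more than 1 of these genes.

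Of the linked enzymes, Pdk4, the kinase that switches off pyruvate dehydrogenase and so spares glucose when fat is burned, had 71.4, 262.0 and 363.8 CPM in CDAA and 63.8, 125.1 and 105.9 CPM in CSAA. CDAA replicates 2 and 3 stood above every CSAA library and replicate 1 near the lowest of them. The log2 fold change was 1.24 ± 0.52 (edgeR adjusted p = 0.147), and 1.67 with an adjusted p of 0.0164 without CDAA replicate 1. Vnn1, the pantetheinase that splits a breakdown product of CoA, had 65.0, 61.5 and 101.3 CPM in CDAA and 53.2, 96.1 and 74.5 CPM in CSAA. Aldh3a2, the fatty aldehyde dehydrogenase, had 421.0, 619.3 and 742.1 CPM in CDAA and 465.2, 670.5 and 442.1 CPM in CSAA. For both the diets overlapped widely, and the log2 fold changes of 0.03 and 0.18 were -0.24 and -0.01 without CDAA replicate 3, and -0.24 and -0.10 with library size only.

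Across the members, CDAA replicate 3 was the highest of the 6 libraries for 20 of 30, against 19.7% of all tested genes. The 30 members took 0.658%, 0.792% and 0.958% of the reads of CDAA replicates 1 to 3, and 0.686%, 0.787% and 0.713% of those of CSAA replicates 1 to 3. The level in CDAA replicate 3 was 5.61 times the mean of the other CDAA libraries for Acot1, 5.31 times for Acot3, 3.77 times for Acot2, 2.84 times for Ehhadh, 2.36 times for Crat and 2.18 times for Pdk4, against 0.972 times for Cpt1a, 0.934 times for Acaa2 and 0.773 times for Echs1. The thioesterases, Ehhadh, Crat and Pdk4 were thus among the 20 members with their highest level in this library, as were Acadvl and Etfdh. Cpt1a, Acaa2 and Echs1 were not. For Pdk4, CDAA replicate 2 (262.0 CPM) also stood above every CSAA library, and the low CDAA replicate 1 (71.4 CPM) entered the mean used for its ratio. Fgf21, a hepatokine known to be induced by PPARα on fasting, had 19.9, 11.2 and 172.3 CPM in CDAA and 170.3, 143.8 and 27.6 CPM in CSAA. It was high in CDAA replicate 3 but also in CSAA replicates 1 and 2, where Acot1 was low (edgeR adjusted p = 0.658). Ppara itself stood at 187.1, 200.0 and 126.0 CPM in CDAA and 116.6, 136.6 and 134.7 CPM in CSAA, so it was lowest among the CDAA livers in replicate 3 (log2 fold change 0.40, edgeR adjusted p = 0.164). These are RNA levels. The activity of the receptor was not measured, and the cause of the pattern in CDAA replicate 3 was not tested.

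**Figure D4:**
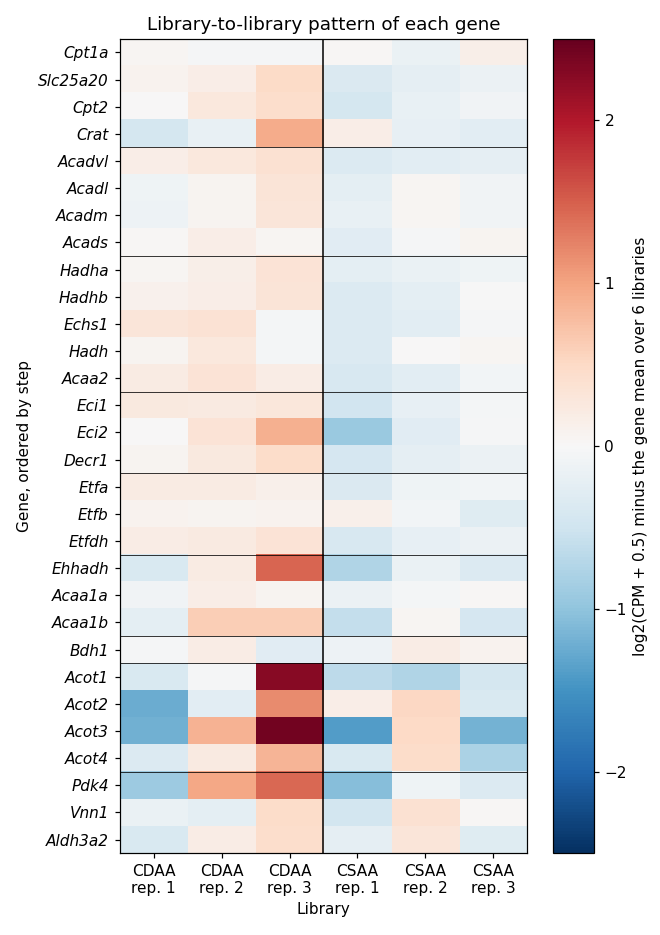
Deviation of log2(CPM + 0.5) from the gene's mean over the 6 libraries, for the 30 genes (rows, by step) in the CDAA libraries (left) and the CSAA libraries (right); red is above the mean and blue below. CDAA replicate 3 is reddest for Ehhadh, Acot1, Acot3 and Pdk4, and the mitochondrial rows show small deviations, higher in CDAA for most rows on this TMM scale.

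The promoters of the members were searched for the direct repeat AGGTCANAGGTCA, the element that PPARα and RXR are known to bind, on both strands, with up to 2 mismatches outside the N. RefSeq windows of 300 bases (GRCm38.p6; 250 before to 50 after each start) gave 28 windows for 26 members, with no window used for Acaa2, Crat, Decr1 or Vnn1. A match was present in 4 of the 28 windows, 14.3%, against 3.86% of all 32851 windows. They are printed with 8 flanking bases on each side and the match in capitals, because they show the repeat in 1 gene that rose and in 3 that did not pass; each has 2 mismatches. Slc25a20 lies at chr9:108662134-108662162 on the plus strand, Echs1 at chr7:140116484-140116512 on the minus strand, Etfa at chr9:55512300-55512328 on the plus strand and Acot4 at chr12:84038358-84038386 on the minus strand:
Slc25a20: ctgaatgtAGGTGAAAGGTCGgcggagcc
Echs1: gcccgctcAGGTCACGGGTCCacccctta
Etfa: ttgggagtAGGGCAAAGGTAAgggtgtgc
Acot4: gcacagacCGGCCAAAGGTCAtgcttcgg
Among these genes Slc25a20 passed the test with a log2 fold change of 0.50, and Echs1, Etfa and Acot4 had 0.42, 0.36 and 0.47 without passing. These letters are a description of the windows, and binding was not measured.

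Before oxidation, fatty acids are bound to CoA by acyl-CoA synthetases. Of 17 such activation genes tested, 6 rose and 0 fell, against 4.25% and 10.5% of all tested genes, with a list median of 0.40. Acsl5, a long-chain acyl-CoA synthetase, changed by 0.77 on the log2 scale (edgeR adjusted p = 0.00589), Slc27a5, the bile acid and very-long-chain acyl-CoA synthetase, 0.86 (0.0132), Acss2, the cytosolic acetyl-CoA synthetase, 1.43 (0.0156) and Acsl1, the main liver long-chain synthetase, 1.16 (0.0247). Of these, Acsl5 passed whichever library was left out; Slc27a5 and Acss2 missed without CSAA replicate 1 or 2, and Acsl1 without CDAA replicate 2 or CSAA replicate 1 or 2. Of 22 further peroxisomal oxidation genes, 4 rose and 0 fell, against the same shares, with a median of 0.36. Abcd3, a transporter that brings acyl-CoA into peroxisomes, averaged 979.2 ± 27.3 CPM in CDAA and 495.2 ± 66.6 CPM in CSAA (SD, n = 3 each; edgeR log2 fold change 0.98, adjusted p = 0.00396), and passed whichever library was left out. Phyh, the hydroxylase for branched phytanoyl-CoA, changed by 0.72 (edgeR adjusted p = 0.0236), and missed the threshold without CDAA replicate 1 or 2 or CSAA replicate 1 or 2. Hsd17b4, the D-bifunctional enzyme that acts beside Ehhadh, had a log2 fold change of 0.29 and did not pass (edgeR adjusted p = 0.131).

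Of 22 genes that control entry or the pathway, 4 rose and 0 fell (median 0.27), against 4.25% of all tested genes higher and 10.5% lower, which are also the shares to set beside the next lists. Acacb and Acaca, the carboxylases that make malonyl-CoA, the inhibitor of Cpt1a, had log2 fold changes of 1.47 (edgeR adjusted p = 0.00912) and 0.94 (0.0165). Creb3l3, a liver transcription factor active in fasting, had 0.54 (0.0218). Acacb passed in every fit that left out a library; Acaca missed without CDAA replicate 1 or 2 or CSAA replicate 1, and Creb3l3 without CDAA replicate 2 or CSAA replicate 1 or 2. Cpt1a, the step these carboxylases bear on, is the member whose log2 fold change was nearest 0. All of these are RNA levels, and malonyl-CoA and the activity of the Cpt1a enzyme were not measured. Of 23 other dehydrogenase and short-chain genes 2 rose and 1 fell: Acadsb (0.67, edgeR adjusted p = 0.0233) and Pcca (0.66, 0.0309), both of branched-chain amino acid breakdown, rose, and the thioesterase Acot9 fell (-1.02, 0.0406); each of these calls was lost without CDAA replicate 1 or 2 or CSAA replicate 1 or 2, and that of Acot9 also without CSAA replicate 3. In a list that joins the tricarboxylic acid cycle with pyruvate dehydrogenase and its kinases and phosphatases, 8 of 26 rose and 1 fell, with a median of 0.30. The 4 named here all belong to the pyruvate dehydrogenase part. Pdhx, a pyruvate dehydrogenase component, had 0.68 (edgeR adjusted p = 0.0134, lost without CSAA replicate 1), Pdk1, a pyruvate dehydrogenase kinase, 0.89 (0.0140, kept throughout) and Pdp2, the phosphatase that opposes such kinases, 0.68 (0.0154, lost without CDAA replicate 2 or CSAA replicate 1 or 2). Pdk3, a kinase at 0.614 ± 0.147 CPM in CDAA and 1.90 ± 0.230 CPM in CSAA (SD, n = 3 each), fell (log2 fold change -1.61, edgeR adjusted p = 0.0274), a call kept only without CDAA replicate 3. On the hepatocyte marker scale the list medians were -0.10 for control genes and -0.08 for the tricarboxylic acid cycle and pyruvate dehydrogenase list. They were -0.02 for further peroxisomal genes, -0.01 for the other ketone body genes, 0.03 for activation genes and 0.05 for the short-chain list.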

How the data were processed

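Each deposited table holds 1 library of 21899 genes with a read count per gene, not normalised, and FPKM, per the file headers. The authors' FPKM equalled the deposited count scaled by listed length and library total for 100% of values within a relative tolerance of 0.001, and was used, divided by the TMM factor, to compare levels between genes. Per the submitters' processing notes, DESeq 1.30.0, HTSeq 0.9.1, HISAT2 2.0.5 and cutadapt 1.15 were among the tools, with mm9 and mm10 as builds. Whether strand was used, how multiply matching reads were counted and which build the coordinates follow is not given in the sources used here, so counts of overlapping or near-identical genes are uncertain. Opposite-strand overlaps in the tables touch Acadvl, Echs1, Acaa1a, Acaa1b, Crat, Etfdh and Hadha.

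The count model was edgeR 4.0.16 under R 4.3.3 (TMM, filterByExpr, glmQLFit and glmQLFTest, no covariate), with Benjamini-Hochberg adjustment over 12845 genes and a threshold of 0.05. The SE is the log2 fold change over the root of F. A count of 3 reads was 0.148 to 0.228 CPM across libraries, and such limits cover counting error only. The functions were also tested on simulated data. Alternatives were RLE, upper-quartile and hepatocyte-marker factors, library size only, other filters, DESeq2 1.42.0, a replicate block and each library left out. Members and lists were chosen with earlier results of these data known. All members are named; from every other list up to 3 passing genes per direction were taken by smallest adjusted p, with Acat1, Hsd17b4, Acsl1, Ppara and Fgf21 added whatever their result; some genes that this rule takes are not reported here. Coding identities used Biopython 1.88 on GENCODE M21. Cpt1b and Alb were named after their values were seen.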

Additional observations from a re-analysis of the deposited data

How the results depend on the processing

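Both the scaling and single libraries moved the calls. The calls over all genes numbered 546 higher and 1355 lower on the TMM scale, against 137 and 2745 with library size only and 87 and 3257 on the hepatocyte marker scale. Members called higher numbered 6 with TMM, 0 with library size only and 0 on the hepatocyte scale, where 1 was called lower. The median of the members was 0.13 with library size only and 0.03 on the hepatocyte scale, and that of the mitochondrial members 0.12 and 0.03. Log2 fold changes that turned negative with library size only, and on the hepatocyte scale, were -0.08 and -0.18 for Acadl, -0.11 and -0.20 for Acadm, -0.12 and -0.21 for Acads, -0.10 and -0.20 for Hadh, -0.07 and -0.17 for Etfb, -0.16 and -0.26 for Acaa1a, -0.19 and -0.27 for Acot2, -0.24 and -0.34 for Vnn1, and -0.10 and -0.21 for Aldh3a2. Crat (-0.04), Hadha (-0.01) and Etfa (-0.02) turned negative on the hepatocyte scale but not with library size only, Vnn1 also with upper-quartile factors (-0.01), and Cpt1a turned positive with RLE factors (0.01) and DESeq2 (0.01). DESeq2 called 1102 genes higher and 13 members higher. Apart from the shifts that the scalings themselves make, the cause was not tested.

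Leaving out 1 library at a time gave 76 to 688 genes higher and 568 to 1456 lower, and 0 to 6 members higher. The 0 came without CSAA replicate 1, which also gave the 76 and the 568, and 1 (Acadvl) without CDAA replicate 2 or CSAA replicate 2. The thioesterase median ran from 0.27, without CDAA replicate 3, to 1.45. Log2 fold changes crossed 0 for Cpt1a (-0.08 to 0.09), Crat (-0.22 to 0.56), Bdh1 (-0.20 to 0.03), Acot2 (-0.86 to 0.50), Vnn1 (-0.24 to 0.26) and Aldh3a2 (-0.01 to 0.40). Over all alternatives for single members and ratio pairs, 371 values kept their direction and side of the threshold, 16 newly passed, 39 no longer passed and 36 changed sign.

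With the replicate number as a block, 293 genes were higher and 1090 lower, 6 members were higher (Acadvl, Cpt2, Decr1, Eci1, Eci2 and Slc25a20), and Acot2 stood at -0.23. The numbers were not taken to pair the mice. Deviations of same-numbered libraries correlated at 0.068, 0.124 and -0.0628. CDAA replicates 1 and 2 each correlated best with the same-numbered CSAA library, and CDAA replicate 3 with CSAA replicate 1 (0.0919).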

Other observations

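Within-library ratios of FPKM, in which the library scaling cancels, were computed for 7 pairs chosen after the data were seen. With 3 against 3 libraries the smallest exact two-sided permutation p is 0.1, so 0 pairs could pass. For 3 pairs all CDAA ratios lay above all CSAA ratios, each with an exact permutation p of 0.1 and a Benjamini-Hochberg value of 0.233 over the 7 pairs. Slc25a20 over Cpt1a was 0.348, 0.392 and 0.484 in CDAA and 0.260, 0.327 and 0.278 in CSAA. Acadvl over Acadm was 1.07, 1.02 and 0.932 in CDAA and 0.795, 0.719 and 0.808 in CSAA. Acot1 over Acot2 was 2.34, 1.49 and 2.63 in CDAA and 0.698, 0.502 and 1.19 in CSAA, for a pair whose reads may be shared.

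The ratios of Cpt2 over Cpt1a, Hadha over Hadhb, Ehhadh over Hadha and Acaa1b over Acaa1a overlapped between the diets. Hadha over Hadhb, the subunits of 1 protein, was 1.89, 1.93 and 1.97 in CDAA and 2.08, 2.06 and 1.83 in CSAA. Ehhadh over Hadha was 2.03, 2.86 and 5.91 in CDAA and 1.95, 2.74 and 2.32 in CSAA, with CDAA replicate 3 again apart. Acaa1b over Acaa1a was 11.7, 17.9 and 19 in CDAA and 9.66, 14.2 and 9.58 in CSAA.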
